A study of Mus musculus with 12 samples.

Results

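Expression of the proteasome and immunoproteasome genes was examined in 4 subsets of mouse thymocytes. A gene was taken where its symbol starts with Psma, Psmb, Psmc, Psmd, Psme, Psmf or Psmg and a digit, and where at least 1 probe set of the array carried that symbol alone. This rule found 49 genes with 103 probe sets, of 18193 genes with 34945 probe sets on the array, and no measured value entered it. No filter on low values was applied, so all 49 genes were tested. They comprise 4 immunoproteasome genes (Psmb8, Psmb9, Psmb10 and Psme1) and 45 others, which are 8 genes of the 20S alpha ring, 7 constitutive genes of the 20S beta ring, 6 ATPases and 11 other subunits of the 19S particle, 7 assembly chaperones, 3 activators or inhibitors, the tissue-specific subunit Psmb11, and Psmc3ip and Psme3ip1. Psmc3ip and Psme3ip1 meet the rule on symbols but do not encode subunits: PSMC3IP acts in homologous recombination in meiosis, and PSME3IP1 binds PSME3. The only probe set for Psme2, the partner of Psme1, also carries the symbol Psme2b, so Psme2 is not a member and no value is given for it.

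The thymocytes were sorted from C57BL/6 mice, were neither treated nor cultured, and were lysed in Trizol. DN cells were sorted as lacking CD4, CD8α and TCRβ, DP cells as carrying CD4 and CD8α, CD4SP cells as carrying CD4 and high TCRβ without CD8α, and CD8SP cells as carrying CD8α and high TCRβ without CD4. No genotype other than the strain, no age and no marker of another lineage in the sorts is given in the labels. RNA of each subset was hybridised to 3 Affymetrix arrays, and whether each array had its own mouse is not in the labels, so that the p-values rest on a spread between arrays that may be technical alone. The precision of each value is limited by this number of arrays.

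The proteasome degrades proteins marked with ubiquitin. Its 20S core is a barrel of alpha and beta rings, in which Psmb5, Psmb6 and Psmb7 encode the catalytic subunits, and the 19S cap recognises, unfolds and feeds in the substrate. Interferons and cells of the immune system replace the catalytic subunits by those encoded by Psmb8, Psmb9 and Psmb10, and PSME1 and PSME2 form the PA28αβ activator that docks on the core. This immunoproteasome changes the peptides cut for MHC class I. In the thymus, epithelial cells of the cortex carry a further catalytic subunit, encoded by Psmb11, which shapes the peptides on which CD8 T cells are selected.

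The deposited values are logarithms from which the mean over the 3 DP arrays is subtracted, read here as log2, so DP has a mean of 0 for each gene and neither absolute levels nor signal over background can be read. Every value below is a log2 value relative to the DP mean, and every difference is a log2 difference with the standard error (SE) of the limma fit over 3 arrays a group. Genes were called at a Benjamini-Hochberg adjusted p under 0.05 over all 18193 genes, and "rose" and "fell" are used of called genes alone. In bulk RNA, fewer cells of a type and less RNA per cell cannot be told apart. Where a gene has several probe sets, its value is their mean. Groups of 3 arrays often do not overlap. Of all 18193 genes, DP lay below DN without overlap in 4358. CD4SP lay above DP in 4744 and below it in 4236, and CD8SP in 4145 and 4691. CD4SP lay below DN in 4619 and below CD8SP in 2109, and CD8SP lay below DN in 4774.

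The genes used in the sort followed the labels in the single-positive subsets. Cd4 averaged -8.90 ± 0.45 in CD8SP and -0.64 ± 0.12 in CD4SP, and Cd8a averaged -6.53 ± 0.26 in CD4SP and -0.33 ± 0.12 in CD8SP (SD, n = 3 each). On the DN arrays Cd4 had -3.88, -6.49 and -5.29 and Cd8a had -2.63, -4.59 and -3.94. These values lie below DP but above the single-positive subset sorted as lacking each marker, with replicate 1 highest. The source of this signal was not tested. Rag1, active up to the DP stage, averaged -9.24 in CD4SP and -9.21 in CD8SP, and Ccr7, a receptor of mature thymocytes, averaged 7.23 and 6.85 there. The arrays numbered 1 had the lowest limma array weights. In 6 of 6 pairs of them the deviations from the group means correlated, at 0.11 to 0.16. Replicate 1 of CD8SP had the lowest weight, 0.28, and gave the lowest CD8SP value for 41 of the 45 members outside the immunoproteasome. Replicate 1 of DN followed with 0.53, that of DP with 0.69 and that of CD4SP with 0.90. The arrays numbered 2 or 3 had weights of 0.94 to 1.81. Calls of CD8SP against DP or DN that changed without its replicate 1 are therefore named. Of 6 marker lists of other cell types 4 had their highest means in DN: over 8 B cell genes the mean was 0.52 on DN replicate 1 beside 2.36 and 2.03 on replicates 2 and 3, over 15 myeloid and dendritic cell genes it was 1.73, 2.65 and 3.05, over 8 genes of NK and innate lymphoid cells 1.17, 2.11 and 2.29, and over 4 genes of γδ T cells 2.35, 2.88 and 2.92. The DN means were -0.57, -0.22 and -0.15 over 3 erythroid genes and -0.02, 0.04 and 0.24 over 12 thymic stroma genes, which were not set apart in this way. Since levels are lost, which of these markers are absent cannot be read.

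Most proteasome genes were lower in DP than in DN thymocytes. Of the 49 genes 33 fell, 3 rose and 13 were not called, while 18.8% of all genes fell and 17.8% rose. The median difference, DP minus DN, was -0.46 over the 49 genes and 0.04 over all genes. All 4 immunoproteasome genes fell, and of the 45 others 29 fell and 3 rose. After quantile normalization 3 of the 4 and 18 of the 45 fell and 1 of the 45 rose, while over all genes 1678 fell, against 3420 before it. The next transition divided the family. From DP to the single-positive subsets the immunoproteasome genes were higher, with medians of 1.39 in CD4SP and 1.67 in CD8SP, while the other 45 genes had medians of -0.08 and 0.10. The heat map of all members shows each array, and the plot of the 3 differences shows each gene with its error.

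**Figure D1:**
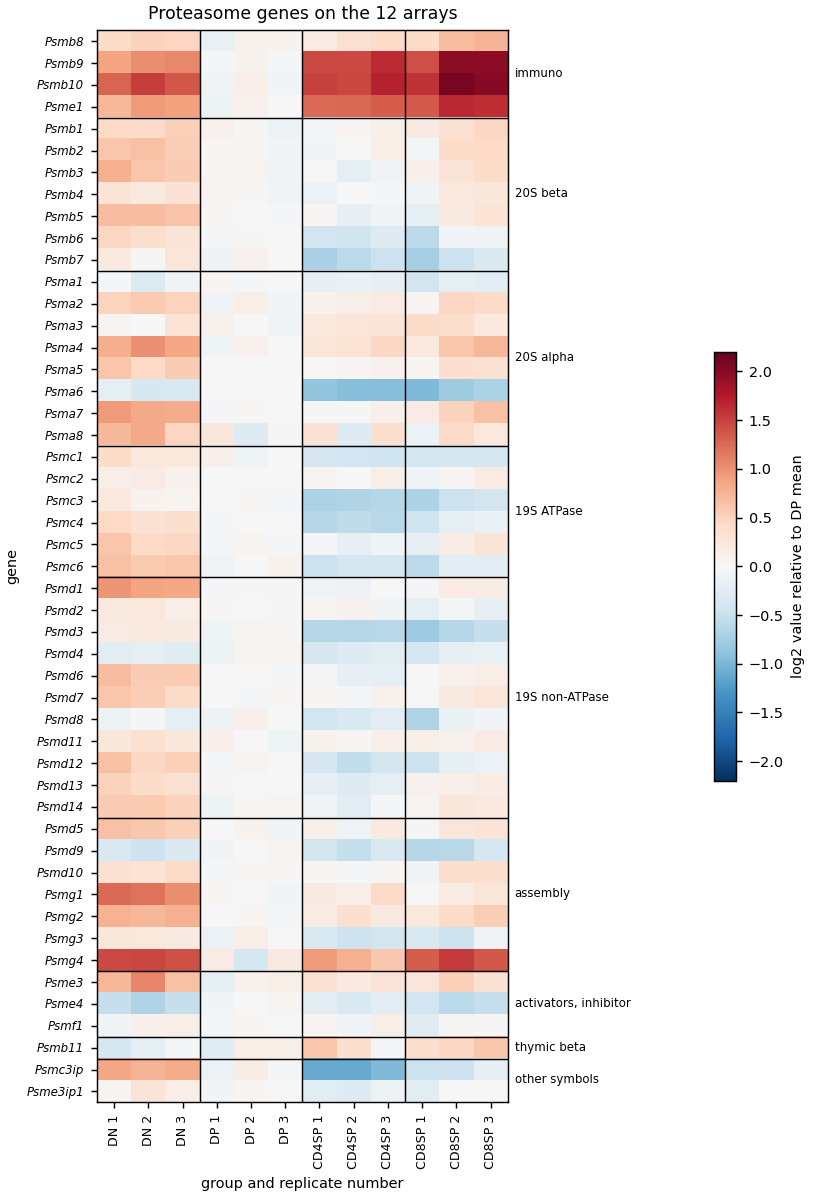
Log2 value relative to the DP mean (colour) of the 49 proteasome genes (rows, grouped by role) on the 12 arrays (columns, 3 each of DN, DP, CD4SP and CD8SP, by replicate number). Psmb9, Psmb10 and Psme1 are red in DN, near 0 in DP and red again in CD4SP and CD8SP, while most other rows are reddest in DN.

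**Figure D2:**
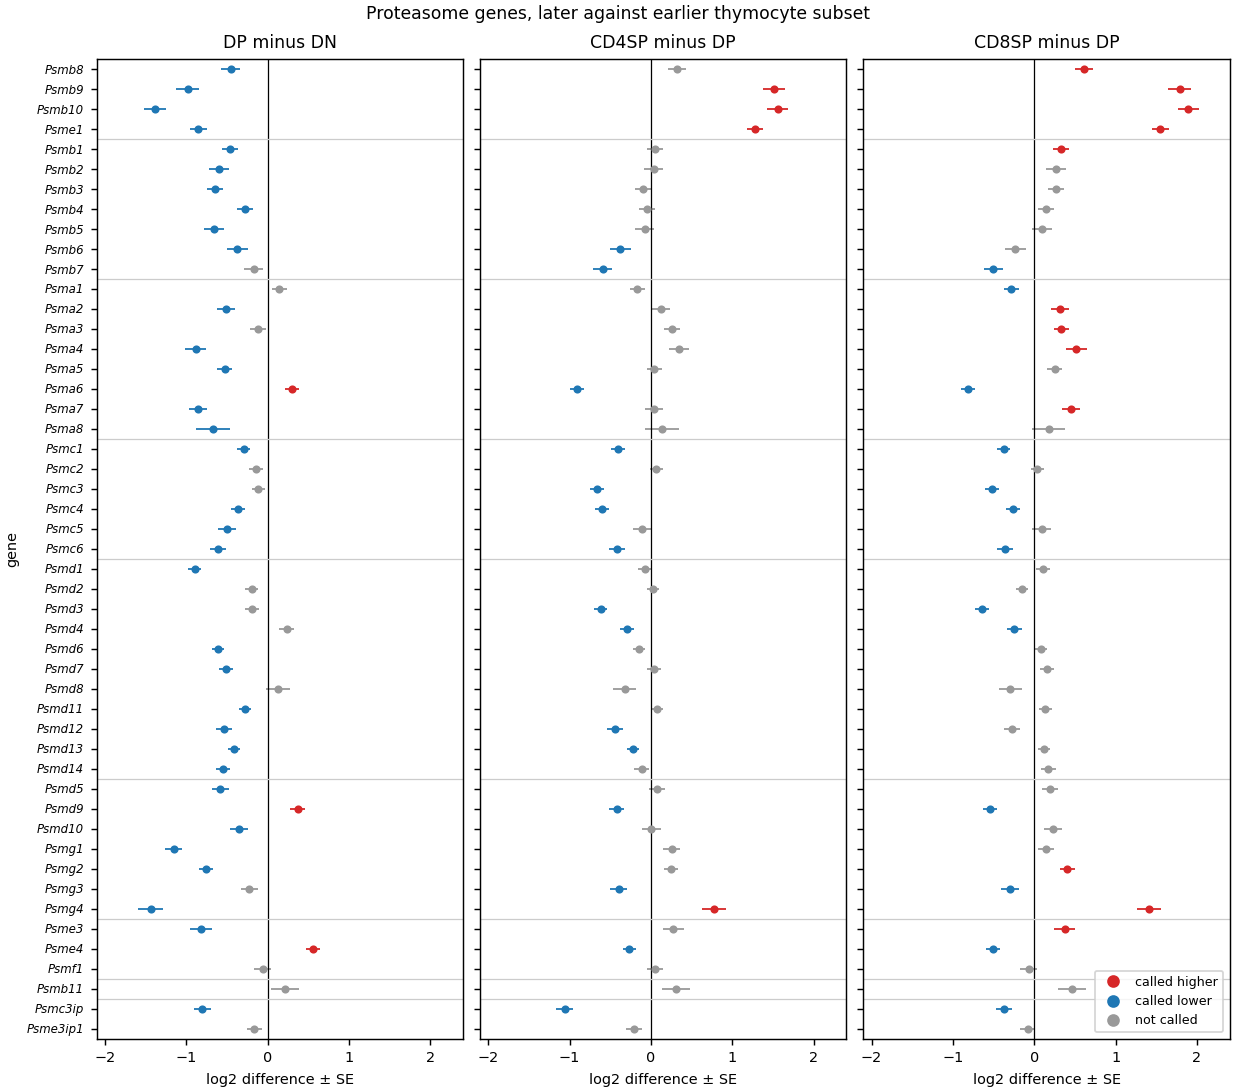
Log2 difference (x axis; points with bars of 1 SE from limma) of each of the 49 genes (y axis, grouped by role) for DP minus DN, CD4SP minus DP and CD8SP minus DP, coloured by call. In the first panel 33 genes are called lower, and in the other panels the immunoproteasome genes stand to the right of nearly all others.

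Sequences upstream of the immunoproteasome genes are shown first, because these genes moved together between the subsets and are known as targets of interferon signalling. The windows span 250 bases before to 50 bases after the transcription start, from RefSeq on GRCm38.p6, printed 5′ to 3′ on the gene's strand. RefSeq windows were found for 41 of the 49 members, 44 windows in all. They were searched on both strands for an IRF-type motif (GAAA, any 2 bases, GAAA), a STAT-type motif (TTCNNNGAA), an antioxidant-type motif (TGACNNNGC) and the CCAAT box (CCAAT). Capitals mark the match that is named for each gene. Psmb9 lies at chr17:34187281-34187580 (minus strand, match to CCAAT), Psmb8 at chr17:34197945-34198244 (plus strand, STAT-type) and Psme1 at chr14:55578244-55578543 (plus strand, IRF-type). Psmg4, the chaperone gene with the largest fall outside the immunoproteasome, lies at chr13:34162714-34163013 (plus strand, IRF-type), and Psmb5, the constitutive counterpart of Psmb8, at chr14:54617946-54618245 (minus strand, antioxidant-type).
Psmb9: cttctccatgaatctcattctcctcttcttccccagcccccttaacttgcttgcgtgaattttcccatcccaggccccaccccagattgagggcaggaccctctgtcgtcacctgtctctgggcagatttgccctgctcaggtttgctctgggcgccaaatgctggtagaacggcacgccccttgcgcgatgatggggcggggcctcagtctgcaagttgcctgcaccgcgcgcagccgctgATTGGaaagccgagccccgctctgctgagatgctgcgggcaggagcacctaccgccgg
Psmb8: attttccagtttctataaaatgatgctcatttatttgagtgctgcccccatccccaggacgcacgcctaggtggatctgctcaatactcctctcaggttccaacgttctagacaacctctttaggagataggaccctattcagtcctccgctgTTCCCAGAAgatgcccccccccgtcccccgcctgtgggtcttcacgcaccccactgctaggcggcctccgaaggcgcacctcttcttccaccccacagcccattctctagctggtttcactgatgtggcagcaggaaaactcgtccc
Psme1: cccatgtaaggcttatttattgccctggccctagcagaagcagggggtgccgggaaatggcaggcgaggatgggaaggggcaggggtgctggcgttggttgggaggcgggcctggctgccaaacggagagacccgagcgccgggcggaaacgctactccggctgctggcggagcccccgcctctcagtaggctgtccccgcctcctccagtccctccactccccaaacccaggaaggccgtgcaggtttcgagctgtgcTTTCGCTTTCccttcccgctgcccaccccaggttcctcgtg
Psmg4: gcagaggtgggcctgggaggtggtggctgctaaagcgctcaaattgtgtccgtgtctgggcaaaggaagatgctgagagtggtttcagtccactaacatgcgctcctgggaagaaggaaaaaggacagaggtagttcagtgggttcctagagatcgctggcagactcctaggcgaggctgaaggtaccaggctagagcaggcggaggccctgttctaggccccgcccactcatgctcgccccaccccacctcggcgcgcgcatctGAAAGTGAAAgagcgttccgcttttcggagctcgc
Psmb5: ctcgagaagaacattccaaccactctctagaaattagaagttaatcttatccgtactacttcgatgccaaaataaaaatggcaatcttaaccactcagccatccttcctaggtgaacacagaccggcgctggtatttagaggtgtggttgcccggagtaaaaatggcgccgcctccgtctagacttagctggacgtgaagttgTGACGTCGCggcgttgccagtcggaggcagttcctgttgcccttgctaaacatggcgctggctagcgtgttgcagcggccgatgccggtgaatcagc

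Relative to the start, the first base of the match lies at -8 in Psmb9, -97 in Psmb8, -47 in Psmb5, 10 in Psme1 and 16 in Psmg4. The IRF-type motif was found in 1 of the 4 immunoproteasome windows and 4 of the 40 other members' windows, against 3.44% of 32851 windows of all genes. The STAT-type motif was found in 1 of 4 and 2 of 40, against 8.3% of all windows, and the antioxidant-type motif in 0 of 4 and 6 of 40, against 12.39%. CCAAT was found in 1 of 4 and 15 of 40, against 37.41%. The window of Psmb10 held no match to any of these motifs. The motifs can overlap one another, and a match describes the letters only. The windows of Psmb9 and of Tap1, which encodes a subunit of the peptide transporter of MHC class I, share 275 bases (chr17:34187306-34187580), since these genes start 226 bases apart on opposite strands.

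Psmb10 encodes the beta2i catalytic subunit. It had -0.07, 0.14 and -0.06 on the DP arrays, against 1.28, 1.52 and 1.36 on the DN arrays. Each DP array lay below each DN array, and Psmb10 fell by 1.39 ± 0.13, or 2.62-fold (adjusted p = 1.57e-05). Psmb9, the beta1i subunit, had -0.05, 0.07 and -0.02 on the DP arrays, against 0.87, 1.03 and 1.06 on the DN arrays, and fell by 0.99 ± 0.14 (1.98-fold, adjusted p = 0.000226). The groups did not overlap here either. Psme1, which encodes PA28α, had -0.11, 0.09 and 0.01 on the DP arrays, against 0.72, 0.94 and 0.90 on the DN arrays, and fell by 0.85 ± 0.10 (1.81-fold, adjusted p = 7.14e-05). Psmb8, the beta5i subunit, had the smallest fall of the 4, with -0.17, 0.10 and 0.07 on the DP arrays, against 0.40, 0.50 and 0.46 on the DN arrays, a fall by 0.46 ± 0.11 (1.37-fold, adjusted p = 0.00889). All 4 genes had DP arrays below every DN array, as had 4358 of all 18193 genes. The call of Psmb8 was lost after quantile normalization (-0.33, adjusted p = 0.274) and without the probe sets marked as shared between transcripts (-0.39, adjusted p = 0.065).

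Psmb9, Psmb10 and Psme1 rose in both single-positive subsets against DP. Psmb10 had 1.50, 1.48 and 1.69 on the CD4SP arrays and rose by 1.55 ± 0.13 over DP (2.94-fold, adjusted p = 6.43e-06). It had 1.59, 2.08 and 2.00 on the CD8SP arrays and rose by 1.89 ± 0.13 over DP (3.72-fold, adjusted p = 1.40e-06). Every single-positive array lay above every DP array. Psmb9 had 1.45, 1.46 and 1.63 on the CD4SP arrays and 1.43, 1.97 and 1.96 on the CD8SP arrays. It rose by 1.51 ± 0.14 in CD4SP (2.85-fold, adjusted p = 9.93e-06) and by 1.79 ± 0.14 in CD8SP (3.45-fold, adjusted p = 2.72e-06), with no overlap with DP. Psme1 had 1.24, 1.26 and 1.33 on the CD4SP arrays and 1.36, 1.67 and 1.62 on the CD8SP arrays, and rose by 1.28 ± 0.10 (adjusted p = 3.73e-06) and 1.55 ± 0.10 (adjusted p = 8.32e-07). Psmb8 changed least. It had 0.19, 0.34 and 0.43 on the CD4SP arrays, all above the DP arrays, but its difference of 0.32 ± 0.11 was not called (adjusted p = 0.0545). Psmb8 was called higher in CD4SP in 8 of 23 alternative limma fits, among them the fit without CD8SP replicate 1 (adjusted p = 0.0246). It had 0.40, 0.68 and 0.75 on the CD8SP arrays and rose by 0.61 ± 0.11 over DP (1.53-fold, adjusted p = 0.00144), a call lost after quantile normalization (0.45, adjusted p = 0.125). Of the 4 genes, 3 rose and 0 fell in CD4SP against DP, while 16.4% of all genes rose and 16.2% fell. All 4 rose in CD8SP against DP, where 18.2% of all genes rose and 20.9% fell. Both comparisons use the same 3 DP arrays. Without CD8SP replicate 1 the 4 genes again rose in CD8SP against DP, by a median of 1.81.

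**Figure D3:**
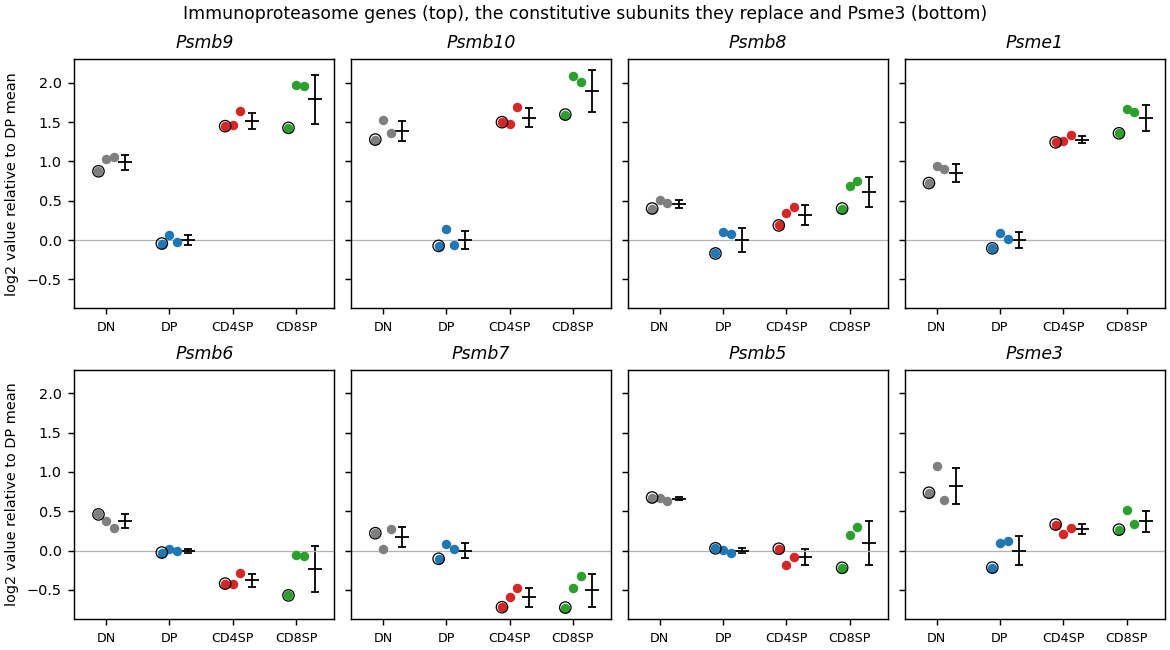
Log2 value relative to the DP mean (y axis) on each array of DN, DP, CD4SP and CD8SP for the 4 immunoproteasome genes (top) and for Psmb6, Psmb7, Psmb5 and Psme3 (bottom); dots are arrays, a ring marks replicate 1, and bars to the right give mean ± SD (n = 3). Psmb9, Psmb10 and Psme1 lie between 1.24 and 2.08 in the single-positive subsets and between -0.11 and 0.14 in DP, while Psmb6 and Psmb7 lie below 0 in both single-positive subsets.

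Set against DN, the single-positive subsets had more mRNA for Psmb9 and Psme1. Psmb9 rose by 0.53 ± 0.14 in CD4SP (adjusted p = 0.00986) and by 0.80 ± 0.14 in CD8SP (adjusted p = 0.000877), and Psme1 by 0.42 ± 0.10 (adjusted p = 0.00618) and 0.69 ± 0.10 (adjusted p = 0.000292). Psmb10 rose in CD8SP by 0.51 ± 0.13 (adjusted p = 0.011), and its difference of 0.17 ± 0.13 in CD4SP was not called (adjusted p = 0.34). Psmb8 was not called in either, with -0.14 ± 0.11 in CD4SP and 0.15 ± 0.11 in CD8SP. After quantile normalization the calls of Psme1 in CD4SP (0.39, adjusted p = 0.0526) and of Psmb10 in CD8SP (0.40, adjusted p = 0.137) were lost. With all values as deposited 2 of the 4 genes rose in CD4SP against DN, where 22.6% of all genes rose and 21% fell, and 3 rose in CD8SP against DN, where 18.7% rose and 22.3% fell.

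Of the 3 constitutive catalytic genes, Psmb5 and Psmb6 fell in DP against DN, and with all arrays 0 rose in a single-positive subset against DP. Psmb5, which encodes beta5, had 0.03, 0.01 and -0.04 on the DP arrays, against 0.68, 0.67 and 0.64 on the DN arrays, and fell by 0.66 ± 0.12 (adjusted p = 0.00145). Psmb6, which encodes beta1, had -0.02, 0.02 and 0.00 on the DP arrays, against 0.46, 0.38 and 0.29 on the DN arrays, and fell by 0.37 ± 0.13 (adjusted p = 0.0398, not called in 9 of 23 alternative fits). Psmb7, which encodes beta2, had a difference of -0.17 ± 0.12 that missed the threshold (adjusted p = 0.295). From DP on, Psmb7 had -0.72, -0.59 and -0.48 on the CD4SP arrays and -0.72, -0.47 and -0.32 on the CD8SP arrays, and fell by 0.59 ± 0.12 (adjusted p = 0.0027) and 0.51 ± 0.12 (adjusted p = 0.00601). Psmb6 had -0.42, -0.43 and -0.28 on the CD4SP arrays and fell by 0.38 ± 0.13 (adjusted p = 0.043, not called in 12 of 23 alternative fits). It had -0.57, -0.06 and -0.07 on the CD8SP arrays, a difference of -0.23 ± 0.13 that was not called (adjusted p = 0.177) and that was -0.07 without replicate 1. Psmb5 was not called in either single-positive subset against DP, with -0.08 ± 0.12 in CD4SP and 0.10 ± 0.12 in CD8SP. Without CD8SP replicate 1 Psmb5 rose in CD8SP by 0.26 (adjusted p = 0.0293).

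As a description, the difference within each array between an immunoproteasome gene and its constitutive counterpart, relative to DP, was widest for Psmb10 and Psmb7. Psmb10 minus Psmb7 averaged 1.21 ± 0.25 in DN, 2.15 ± 0.08 in CD4SP and 2.40 ± 0.14 in CD8SP (SD, n = 3 each). Psmb9 minus Psmb6 averaged 0.61 ± 0.18 in DN, 1.89 ± 0.02 in CD4SP and 2.02 ± 0.02 in CD8SP. Psmb8 minus Psmb5 averaged -0.21 ± 0.06 in DN, 0.40 ± 0.20 in CD4SP and 0.51 ± 0.09 in CD8SP. CD8SP replicate 1 gave 2.32 for Psmb10 minus Psmb7, beside 2.56 and 2.32 on the other CD8SP arrays. It gave 1.995 for Psmb9 minus Psmb6, beside 2.03 on both others, and 0.62 for Psmb8 minus Psmb5, beside 0.48 and 0.44. These values compare changes relative to DP, not the amounts of the mRNAs.

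The other constitutive beta subunits, Psmb1 to Psmb4, are structural and carry no active site. All 4 fell in DP, between Psmb4 at -0.28 ± 0.10 (not called in 12 of 23 alternative fits) and Psmb3 at -0.65 ± 0.10. With these, 6 of the 7 constitutive beta genes fell and 0 rose, beside 18.8% and 17.8% of all genes. In CD4SP against DP 2 of the 7 fell, Psmb6 and Psmb7, and 0 rose, beside 16.2% and 16.4% of all genes. In CD8SP against DP Psmb1 rose, by 0.33 ± 0.10, and Psmb7 fell, while 18.2% of all genes rose and 20.9% fell. Without CD8SP replicate 1 Psmb2, Psmb3, Psmb4 and Psmb5 were called higher there too, so that 5 of the 7 rose. Over all genes 3406 then rose, against 3307 with that array. All 7 fell in CD4SP against DN, with a median of -0.74, and 5 of 7 fell in CD8SP against DN, beside 21% and 22.3% of all genes. The RefSeq gene table lists pseudogenes named for Psmb5, Psmb6, Psmb7 and Psma5, and signal from them could not be separated.

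The alpha ring forms the gate of the core. Of its 8 genes 5 fell in DP against DN, 1 rose and 2 were not called, while 18.8% of all genes fell and 17.8% rose. Psma4 had -0.09, 0.09 and -0.0017 on the DP arrays, against 0.81, 0.998 and 0.85 on the DN arrays, and fell by 0.89 ± 0.13 (1.85-fold, adjusted p = 0.000281). Psma7 had -0.02, 0.03 and -0.01 on the DP arrays, against 0.94, 0.84 and 0.81 on the DN arrays, and fell by 0.86 ± 0.11 (1.82-fold, adjusted p = 0.000123). Neither gene's groups overlapped. Psma8, the alpha subunit of the testis, fell by 0.67 ± 0.21 (adjusted p = 0.0251), and Psma2 and Psma5 fell by 0.51 and 0.53. In CD8SP against DP 4 of the 8 rose, Psma2, Psma3, Psma4 and Psma7, with Psma4 at 0.51 ± 0.13 and Psma7 at 0.45 ± 0.11 the largest. Of all genes 18.2% rose there. The rise of Psma2 was not called in 13 of 23 alternative fits, and its CD8SP and DP arrays overlapped. That of Psma3 was not called in 7. In CD4SP none of the 8 rose against DP, Psma4 had 0.34 ± 0.13 (adjusted p = 0.0629) and Psma7 0.04 ± 0.11.

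Psma6, which encodes alpha1, was the only alpha gene that fell in CD4SP relative to DP. In CD8SP it fell too, as did Psma1 (by 0.28 ± 0.09, adjusted p = 0.0317). Psma6 had -0.88, -0.93 and -0.93 on the CD4SP arrays and -0.97, -0.78 and -0.70 on the CD8SP arrays, against 0.02, -0.01 and -0.01 on the DP arrays. It fell by 0.91 ± 0.08 in CD4SP (1.88-fold, adjusted p = 1.04e-05) and by 0.82 ± 0.08 in CD8SP (1.76-fold, adjusted p = 2.16e-05), and each of its 4 probe sets was called lower in both comparisons. Against DN it rose in DP by 0.30 ± 0.08 (adjusted p = 0.0174), but that rise rests on 1 probe set, which rose by 1.23, while the other 3 were not called. The rise was not called after quantile normalization (0.22, adjusted p = 0.128), nor without DN replicate 2 (adjusted p = 0.0651) or DN replicate 3 (adjusted p = 0.0551). Psma1 and Psma3 were not called in DP against DN, and the probe sets of Psma1 were called in opposite directions there, with -0.53 and 0.56.

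The 6 ATPases of the 19S cap unfold the substrate. In DP against DN 4 of them fell, with Psmc6 at -0.61 ± 0.10 the largest (adjusted p = 0.000551), and Psmc2 and Psmc3 were not called. Of all genes 18.8% fell there. Psmc1, Psmc3, Psmc4 and Psmc6 fell against DP in both CD4SP and CD8SP and 0 rose, while Psmc2 (0.07 and 0.04) and Psmc5 (-0.11 and 0.09) were not called in either. Of all genes 16.2% fell in CD4SP and 20.9% in CD8SP. Psmc1 has 2 probe sets, and its fall against DP was not called in 3 of 23 alternative fits in each subset. Its difference ranged over these fits from -0.78 to -0.04 in CD4SP and from -0.72 to -0.03 in CD8SP. Psmc3, which encodes Rpt5, had -0.70, -0.66 and -0.64 on the CD4SP arrays and -0.67, -0.47 and -0.41 on the CD8SP arrays, against -0.01, 0.03 and -0.03 on the DP arrays. It fell by 0.67 ± 0.09 in CD4SP (1.59-fold, adjusted p = 0.000118) and by 0.52 ± 0.09 in CD8SP (1.43-fold, adjusted p = 0.000614), with no overlap with DP. Psmc4 had -0.63, -0.56 and -0.62 on the CD4SP arrays and -0.44, -0.20 and -0.15 on the CD8SP arrays, and fell by 0.60 ± 0.09 in CD4SP (adjusted p = 0.000281) and by 0.26 ± 0.09 in CD8SP (adjusted p = 0.0333). The fall of Psmc4 in CD8SP was not called without CD8SP replicate 1, at -0.17 (adjusted p = 0.0785).

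Against DN the ATPases had the lowest median of the 19S and 20S groups in CD8SP, at -0.63, and 5 of 6 fell in each single-positive subset. Of all genes 21% fell in CD4SP and 22.3% in CD8SP. Psmc6, which encodes Rpt4, had -0.47, -0.39 and -0.38 on the CD4SP arrays and -0.58, -0.25 and -0.24 on the CD8SP arrays, against 0.65, 0.57 and 0.61 on the DN arrays. It fell by 1.03 ± 0.10 in CD4SP (2.04-fold, adjusted p = 1.01e-05) and by 0.97 ± 0.10 in CD8SP (1.96-fold, adjusted p = 2.08e-05), and no array of either subset reached the DN arrays. Psmc4 fell by 0.97 ± 0.09 in CD4SP against DN (1.96-fold, adjusted p = 6.39e-06), where the DN arrays had 0.44, 0.32 and 0.36.

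Of the 11 non-ATPase subunits of the 19S cap, which include the scaffolds, ubiquitin receptors and the deubiquitinase, 7 fell in DP against DN and 0 rose. Of all genes 18.8% fell there and 17.8% rose. Psmd1, which encodes the scaffold Rpn2, had -0.05, 0.02 and 0.03 on the DP arrays, against 0.97, 0.87 and 0.86 on the DN arrays, and fell by 0.90 ± 0.08 (1.87-fold, adjusted p = 1.03e-05). Psmd14, the deubiquitinase Rpn11, fell by 0.55 ± 0.09 (adjusted p = 0.000588). The ubiquitin receptor Psmd4 had a difference of 0.23 ± 0.09 that missed the threshold (adjusted p = 0.0636). In CD4SP against DP 4 of 11 fell, Psmd3, Psmd4, Psmd12 and Psmd13, and in CD8SP against DP Psmd3 and Psmd4 fell, with 0 higher in either. The falls are 36.4% of the 11 in CD4SP and 18.2% in CD8SP, beside 16.2% and 20.9% of all genes. The fall of Psmd13 in CD4SP was not called in 11 of 23 alternative fits and was reversed in 1. The fall of Psmd4 in CD8SP was lost under 16 of 23 alternatives, and without CD8SP replicate 1 it was -0.17 (adjusted p = 0.134), while Psmd7 was then called higher (0.23, adjusted p = 0.0472). Psmd3, which encodes Rpn3, had -0.63, -0.62 and -0.61 on the CD4SP arrays and -0.80, -0.63 and -0.51 on the CD8SP arrays, against -0.09, 0.06 and 0.03 on the DP arrays. It fell by 0.62 ± 0.08 in CD4SP (adjusted p = 0.000183) and by 0.65 ± 0.08 in CD8SP (adjusted p = 0.000118), with no overlap.

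Psmd12, which encodes Rpn5, and Psmd1 were among the largest differences against DN. Psmd12 had -0.37, -0.55 and -0.41 on the CD4SP arrays and -0.47, -0.21 and -0.14 on the CD8SP arrays, against 0.64, 0.46 and 0.52 on the DN arrays. It fell by 0.99 ± 0.10 in CD4SP (adjusted p = 1.51e-05) and by 0.81 ± 0.10 in CD8SP (adjusted p = 8.32e-05). Psmd1 had -0.10, -0.13 and -0.01 on the CD4SP arrays and fell by 0.98 ± 0.08 against DN (adjusted p = 3.84e-06), while against DP its difference of -0.08 ± 0.08 was not called. Psmd3 showed the other order, with -0.19 ± 0.08 in DP against DN (not called, adjusted p = 0.0964) and a fall by 0.84 ± 0.08 in CD8SP against DN (adjusted p = 1.98e-05).

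Chaperones build the core and the cap before they join. Psmg4, part of the PAC3-PAC4 chaperone of the alpha ring, had 0.18, -0.38 and 0.20 on the DP arrays, against 1.46, 1.47 and 1.39 on the DN arrays. It fell by 1.44 ± 0.15 (2.72-fold, adjusted p = 2.88e-05), which was the largest fall of the 49 genes, and no DP array came near the DN arrays. Psmg1, which encodes PAC1, had 0.05, 0.02 and -0.06 on the DP arrays, against 1.25, 1.20 and 1.02 on the DN arrays, and fell by 1.15 ± 0.10 (2.23-fold, adjusted p = 9.27e-06). Psmg2, which encodes PAC2, fell by 0.76 ± 0.09 (adjusted p = 6.86e-05). Of the 7 chaperone genes 5 fell in DP against DN, 1 rose and 1 was not called, beside 18.8% of all genes lower and 17.8% higher. The riser was Psmd9, at 0.37 ± 0.09 (adjusted p = 0.00823), which rests on 1 of its 3 probe sets.

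Psmg4 was the only gene outside the immunoproteasome that rose in CD4SP against DP, among 45. It had 0.94, 0.78 and 0.60 on the CD4SP arrays and rose by 0.77 ± 0.15 (1.71-fold, adjusted p = 0.00233). It had 1.33, 1.53 and 1.37 on the CD8SP arrays and rose by 1.41 ± 0.15 over DP (2.66-fold, adjusted p = 2.9e-05). The CD8SP arrays lay on both sides of the DN arrays, with a difference from DN of -0.03 ± 0.15 that was not called (adjusted p = 0.884). Psmg3, which encodes its partner PAC3, fell against DP in CD4SP by 0.40 ± 0.11 (adjusted p = 0.0149) and in CD8SP by 0.30 ± 0.11 (adjusted p = 0.0491, and 0.104 without CD8SP replicate 1). The call of Psmg3 in CD8SP was lost in 19 of 23 alternative fits. Psmg1 remained below DN, with 0.00, 0.16 and 0.26 on the CD8SP arrays, a fall by 1.01 ± 0.10 against DN (2.02-fold, adjusted p = 2.25e-05). Psmd9 had -0.63, -0.62 and -0.39 on the CD8SP arrays, against -0.06, 0.0013 and 0.06 on the DP arrays, and fell by 0.54 ± 0.09 (1.46-fold, adjusted p = 0.000688).

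The remaining members act on the outside of the core or are not part of it. Psme3, which encodes the nuclear activator PA28γ, fell in DP by 0.82 ± 0.13 (adjusted p = 0.000571) and rose in CD8SP against DP by 0.37 ± 0.13 (adjusted p = 0.0442, not called in 11 of 23 alternative fits). Psme4, the activator PA200, went the other way and rose in DP by 0.56 ± 0.08 (adjusted p = 0.000305), with each of its 6 probe sets called higher. It fell against DP by 0.27 ± 0.08 in CD4SP (adjusted p = 0.0269) and by 0.51 ± 0.08 in CD8SP (adjusted p = 0.000515). The inhibitor Psmf1 was not called in any of the 6 comparisons. Psmb11, the subunit of cortical epithelium, had -0.27, 0.15 and 0.12 on the DP arrays, against -0.37, -0.21 and -0.05 on the DN arrays, which overlapped. It had 0.61, 0.35 and -0.04 on the CD4SP arrays and 0.36, 0.45 and 0.60 on the CD8SP arrays and was not called against DP in CD4SP (0.31 ± 0.17, adjusted p = 0.205) or CD8SP (0.47 ± 0.17, adjusted p = 0.0511). Against DN it was called higher, by 0.52 ± 0.17 in CD4SP (adjusted p = 0.0305) and 0.68 ± 0.17 in CD8SP (adjusted p = 0.0088), and whether its signal exceeded background cannot be read from these values. Means of 12 thymic stroma markers lay between -0.02 and 0.24 on the DN arrays and between -0.02 and 0.12 on the single-positive arrays. Against DN, 3 of the 12 rose and 2 fell in each single-positive subset. Of all genes 22.6% rose and 21% fell in CD4SP, and 18.7% rose and 22.3% fell in CD8SP. The 12 markers had medians of 0.31 in CD4SP and 0.16 in CD8SP. Their differences from DN were above 0 for 10 of the 12 in CD4SP and 9 in CD8SP. The lowest differences, -2.95 and -2.89, pulled the means down. The part of these markers in the result for Psmb11 was not tested.

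Psmc3ip had -1.11, -1.11 and -0.97 on the CD4SP arrays and -0.47, -0.46 and -0.19 on the CD8SP arrays, against -0.13, 0.15 and -0.02 on the DP arrays and 0.85, 0.75 and 0.82 on the DN arrays. It fell in DP against DN by 0.80 ± 0.10, in CD4SP against DP by 1.06 ± 0.10 (adjusted p = 1.65e-05) and in CD8SP against DP by 0.37 ± 0.10 (adjusted p = 0.0149). Against DN it fell by 1.87 ± 0.10 in CD4SP (3.65-fold, adjusted p = 2.26e-07) and by 1.18 ± 0.10 in CD8SP (adjusted p = 8.03e-06), the largest differences of the 49 genes in those comparisons. No groups overlapped. Psme3ip1 fell in CD4SP against DN by 0.37 ± 0.09 and in no other comparison was it called.

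Counted over the 45 members outside the immunoproteasome, 15 fell and 1 rose in CD4SP against DP. These are 33.3% and 2.22%, beside 16.2% and 16.4% of all genes. In CD8SP against DP 13 fell and 8 rose, which are 28.9% and 17.8%, beside 20.9% and 18.2% of all genes. Without CD8SP replicate 1, 9 fell and 15 rose there: Psma1, Psmc4, Psmd4 and Psmg3 were no longer called, and Psma5, Psmb2, Psmb3, Psmb4, Psmb5, Psmd7 and Psmd10 were called higher. Over all genes 3562 then fell and 3406 rose, against 3796 and 3307 with that array. After quantile normalization 9 of the 45 fell and 0 rose in CD4SP and 5 fell and 0 rose in CD8SP against DP. Over all genes 1656 then fell and 1257 rose in CD4SP, against 2950 and 2992 before it. In CD8SP 1525 fell and 1235 rose, against 3796 and 3307. In CD8SP against DP only 5 rose without DP replicate 3, CD8SP replicate 2 or CD8SP replicate 3. Over all genes 2779, 2871 and 2813 rose without these arrays, in that order. Without DP replicate 2 or DP replicate 3 only 8 fell, while over all genes 3196 and 3197 fell. The single gene that rose in CD4SP against DP became 2 without DN replicate 3 or CD4SP replicate 3, and 3 without CD8SP replicate 1 or CD8SP replicate 3. Over all genes 2912, 2362, 3322 and 2981 rose without these arrays, in that order, against 2992 with all. In CD4SP against DN 33 fell and 2 rose, with a median of -0.55, and the 2 became 1 without DN replicate 1, CD4SP replicate 1 or CD4SP replicate 2 and 0 without DN replicate 2. Over all genes 4114 rose and 3828 fell there, or 1740 and 2425 after quantile normalization. In CD8SP against DN 28 fell and 1 rose, which are 62.2% and 2.22%, beside 22.3% and 18.7% of all genes, with a median of -0.37. After quantile normalization 14 of the 45 fell there, and over all genes 1877 fell, against 4050 before it. Without CD8SP replicate 1, 24 of the 45 fell, with Psma4, Psma5, Psmb2 and Psme3 no longer called, and without DN replicate 3, 2 rose. Over all genes 3696 fell there without CD8SP replicate 1. For the 31 genes of the constitutive 26S particle, taken without Psma8, the mean over genes was -0.20, -0.21 and -0.14 on the CD4SP arrays, -0.21, 0.03 and 0.07 on the CD8SP arrays and 0.42, 0.35 and 0.35 on the DN arrays.

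Some markers of other cell types moved with the differences between DP and DN. In DP against DN 4 of 8 B cell genes, 7 of 8 NK and innate lymphoid cell genes, 8 of 15 myeloid and dendritic cell genes and 4 of 4 γδ T cell genes fell, and 0 of them rose. Of all genes 18.8% fell there and 17.8% rose. Of 12 thymic stroma genes 2 fell and 0 rose, and of 3 erythroid genes 1 rose and 0 fell. DN replicate 1 had the lowest B cell, myeloid, NK and γδ T cell means of the 3 DN arrays. On that array the mean of the 4 immunoproteasome genes was 0.82, beside 0.998 and 0.95 on replicates 2 and 3, and the mean of the 31 constitutive genes was 0.42, beside 0.35 on both others. Without DN replicate 1 all 4 immunoproteasome genes and 24 of the 45 others fell in DP. Over all genes 3345 then fell and 2848 rose, against 3420 and 3240 with that array. The part of these cells in the differences was not tested.

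CD4SP and CD8SP thymocytes differed less. None of the 4 immunoproteasome genes was called, with differences, CD4SP minus CD8SP, between -0.34 ± 0.13 for Psmb10 and -0.27 ± 0.10 for Psme1. With a term for the arrays numbered 1 Psmb8 (adjusted p = 0.0189) and Psme1 (adjusted p = 0.0254) were called lower in CD4SP. Of the 45 others 6 were lower in CD4SP and 0 higher, beside 4.91% of all genes lower and 7.78% higher, and the median was -0.14, beside 0.03 over all genes. Since both subsets were set against the same DP arrays, this comparison also tests whether their differences from DP differ. Psmc3ip had a difference of -0.69 ± 0.10 (adjusted p = 0.00179), and Psmg4 had a difference of -0.64 ± 0.15 (adjusted p = 0.0191). Psma7 had -0.04, 0.03 and 0.11 on the CD4SP arrays, against 0.18, 0.51 and 0.65 on the CD8SP arrays, a difference of -0.41 ± 0.11 (adjusted p = 0.034). Psmb3 had -0.0041, -0.21 and -0.08 on the CD4SP arrays, against 0.12, 0.28 and 0.40 on the CD8SP arrays, a difference of -0.36 ± 0.10 (adjusted p = 0.0364). Psmd13, which encodes Rpn9, had -0.19, -0.28 and -0.19 on the CD4SP arrays, against 0.10, 0.10 and 0.16 on the CD8SP arrays, a difference of -0.34 ± 0.07 (adjusted p = 0.0111). Psmc4 had a difference of -0.34 ± 0.09 (adjusted p = 0.0267). In these 6 genes no CD4SP array overlapped a CD8SP array, and of all 18193 genes 2109 were lower in CD4SP without overlap.

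Replicate 1 of CD8SP decided how many genes were called between the single-positive subsets. Without it all 4 immunoproteasome genes were lower in CD4SP, with differences of -0.49 for Psmb10 (adjusted p = 0.0164), -0.45 for Psmb9 (adjusted p = 0.00988), -0.40 for Psmb8 (adjusted p = 0.032) and -0.37 for Psme1 (adjusted p = 0.0249). Of the 45 others 18 were then lower and 1 higher, which was Psme4 at 0.29 (adjusted p = 0.0436). Over all genes 1364 were then lower and 1425 higher, against 893 and 1415 with all arrays. The mean of NK and innate lymphoid cell markers lay between 0.18 and 0.30 on the CD4SP arrays, against 0.83 to 0.89 on the CD8SP arrays, and 3 of these 8 genes were lower in CD4SP. They were Klrd1 (mean 1.44 in CD4SP and 5.90 in CD8SP), Gzma (-4.13 and -2.96) and Prf1 (-0.0049 and 0.94). The other 5 were not called: Tyrobp had -0.11 and -0.09, Ncr1 0.50 and 0.55, Klrk1 0.19 and 0.10, Fcer1g 0.53 and 0.33, and Il18r1 3.44 and 2.13. The part of these markers in the differences was not tested. Leaving out 1 of the other CD4SP or CD8SP arrays left 2 of the 45 genes lower (without CD4SP replicate 2, CD4SP replicate 3 or CD8SP replicate 2) or 3 (without CD4SP replicate 1 or CD8SP replicate 3). Psmc3ip and Psmd13 kept their calls each time an array was left out. After quantile normalization 0 of the 45 were called, and over all genes 111 were lower, against 893 before it.

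**Figure D4:**
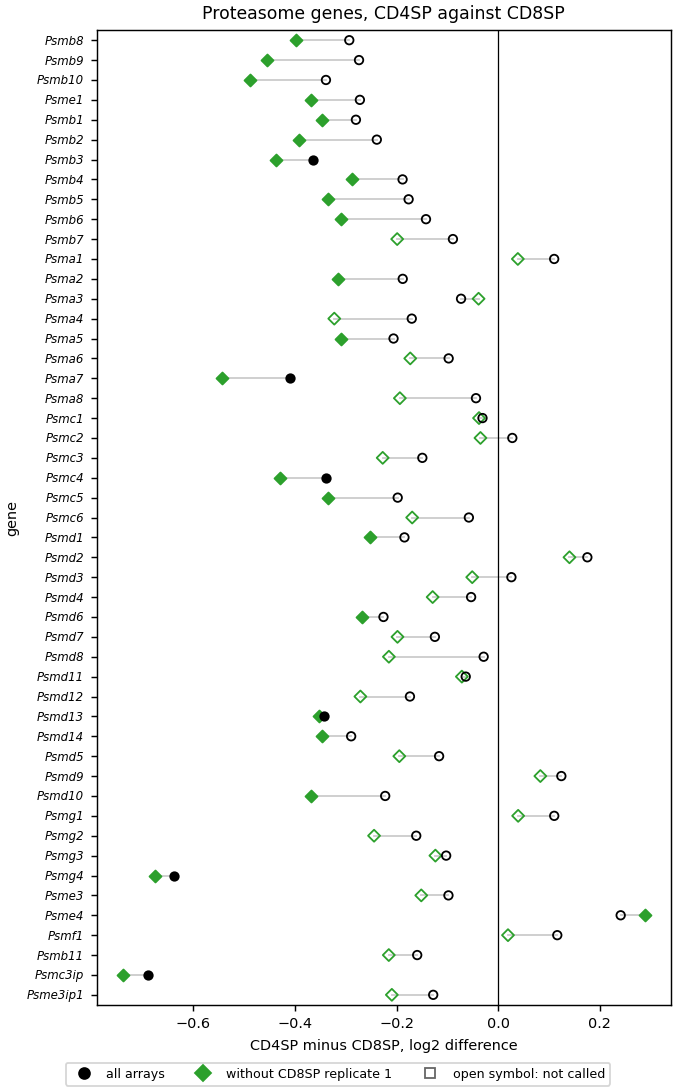
Log2 difference, CD4SP minus CD8SP (x axis), of each of the 49 genes (y axis, grouped by role) with all 12 arrays (black circles) and without CD8SP replicate 1 (green diamonds); filled symbols are called and open ones are not. With all arrays 6 genes are called, all lower in CD4SP, and without that array 22 are called lower and Psme4 higher.

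Other genes of the pathway were examined from lists. Of 14 measured partners of the proteasome without a Psm symbol, 7 fell and 2 rose in DP against DN, which are 50% and 14.3%, beside 18.8% and 17.8% of all genes, with a median of -0.31. Uchl5, a deubiquitinase of the 19S cap, fell by 1.03 ± 0.15 (adjusted p = 0.000264), Usp14, another, by 0.58 ± 0.08 (adjusted p = 0.00019), and the shuttle factor Ubqln4 by 0.78 ± 0.09 (adjusted p = 5.15e-05). Txnl1, Ecpas and Rad23b fell by 0.71, 0.65 and 0.56. Pomp, the maturation factor of the core, fell by 0.49 ± 0.10 (adjusted p = 0.00328) and rose in CD8SP against DP by 0.39 ± 0.10 (adjusted p = 0.0112). Akirin2, which takes part in bringing proteasomes into the nucleus, went against the list and rose by 0.49 ± 0.09 in DP (adjusted p = 0.00156), and so did the ubiquitin ligase gene Ube3c, by 0.26 ± 0.07. Both fell against DP in CD4SP, by 0.46 and 0.35, and in CD8SP, by 0.73 and 0.59. In CD4SP against DP 7 of the 14 fell and 2 rose, beside 16.2% and 16.4% of all genes, and in CD8SP 8 fell and 2 rose, beside 20.9% and 18.2%. Vcp, the segregase that delivers substrates, fell there by 0.39 ± 0.09 and 0.53 ± 0.09, and Usp14 rose by 0.23 and 0.26.

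Among 7 measured regulators, Nfe2l1, which encodes the transcription factor that restores proteasome genes when proteasomes are inhibited, was not called in DP against DN (0.03 ± 0.11) or in CD4SP (0.30 ± 0.11) and CD8SP (0.27 ± 0.11) against DP. Bach1, a repressor at antioxidant elements, rose in DP by 1.22 ± 0.10 (adjusted p = 6.47e-06) and fell against DP by 1.92 ± 0.10 in CD4SP (adjusted p = 2.36e-07) and fell by 2.51 ± 0.10 in CD8SP (adjusted p = 3.34e-08). Mafg, a small partner of these factors, fell in DP by 0.45 ± 0.12 (adjusted p = 0.0117). Keap1, which holds NRF2 inactive, rose in CD4SP against DP by 0.43 ± 0.13. Of 6 genes for ubiquitin and its activation only Uba6 was measured, and it fell in DP by 0.37 ± 0.13 (adjusted p = 0.0391).

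The genes of MHC class I loading and of its inducers, the setting of the immunoproteasome, divided in DP against DN, where 10 of 20 measured genes fell and 7 rose (50% and 35%, beside 18.8% and 17.8% of all genes). The heavy chain H2-K1 fell by 2.03 ± 0.20 (adjusted p = 1.92e-05), B2m by 0.92 ± 0.12 (adjusted p = 0.000128), the class I transactivator Nlrc5 by 1.87 ± 0.26 (adjusted p = 0.000218) and Irf1 by 0.96 ± 0.11 (adjusted p = 4.12e-05). The 7 that rose were the receptor and signalling genes Ifngr1, Ifngr2, Jak1, Jak2 and Stat2, with Irf2 and Tap2. Tap2 had 0.37 ± 0.13 (adjusted p = 0.0461), and its single probe set was not called when probe sets were tested in place of genes. In CD4SP against DP 14 of 20 rose and 2 fell (70% and 10%, beside 16.4% and 16.2% of all genes), and in CD8SP against DP 15 rose and 3 fell (75% and 15%, beside 18.2% and 20.9%). Nlrc5 rose by 5.15 ± 0.26 in CD4SP (adjusted p = 1.48e-07) and 5.09 ± 0.26 in CD8SP (adjusted p = 1.45e-07), H2-K1 by 3.92 ± 0.20 and 4.01 ± 0.20, Irf1 by 2.21 ± 0.11 and 2.08 ± 0.11, and B2m by 1.59 ± 0.12 and 1.69 ± 0.12. Those that fell were Ifngr1, by 2.57 ± 0.12 and 2.43 ± 0.12, and Tap2, by 0.61 ± 0.13 and 0.89 ± 0.13, and in CD8SP also Stat2, by 0.47 ± 0.09. Tap1, which shares its start region with Psmb9, was not called in DP against DN (0.23 ± 0.09) and rose against DP by 0.60 ± 0.09 in CD4SP and by 0.52 ± 0.09 in CD8SP, beside 1.51 and 1.79 for Psmb9. The difference between these genes was not tested.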

How the data were processed

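RNA of 4 sorted thymocyte subsets had been read on 12 Affymetrix arrays, 3 a group. Groups and replicate numbers were taken from the sample titles. For each array the authors deposited a single number per probe set. The authors' values were log-transformed and had the DP mean subtracted, as the deposited numbers show (the largest absolute DP mean is 1.27e-06), and were treated as log2, since no log base is stated. The submitters' processing notes list MAS5, without its role. The genome build was not given in the sources used here. Of 45101 probe sets 34945 carried 1 symbol in the platform annotation and were not controls. Values were averaged per gene and used with no further scaling or filter, since signal over background is lost.

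A mean was fitted for each of the 4 groups over all 12 arrays (limma 3.58.1, R 4.3.3, functions lmFit, contrasts.fit and eBayes), with two-sided p-values adjusted by the Benjamini-Hochberg method over all genes in each of 6 comparisons. The fit was tested on simulated data. No set test was run. Genes were named by role: the immunoproteasome genes, Psmb5, Psmb6, Psmb7, Psmb11 and the 5 largest called differences among the other members in each comparison were given in full. From each pathway list up to 6 genes with the lowest adjusted p and genes that went against their list could be named; further genes were picked after their values were seen. The members and the lists were chosen with earlier results of these data known. Promoter windows came from RefSeq (GRCm38.p6).

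Alternatives changed the choice of probe set, the scaling, the variance model, the arrays used and a replicate block.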

Additional observations from a re-analysis of the deposited data

Results flagged for a closer look

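For 6 genes the difference between CD4SP and CD8SP, which is also the difference between their changes from DP, passed the test of limma across all genes. All 6 were lower in CD4SP. They are 12.2% of the 49 members, beside 4.91% of all genes called lower and 7.78% called higher. Psmc3ip had -1.06 in CD4SP and -0.37 in CD8SP relative to DP, a difference of -0.69 ± 0.10 (adjusted p = 0.00179). Psmg4 had 0.77 in CD4SP and 1.41 in CD8SP, a difference of -0.64 ± 0.15 (adjusted p = 0.0191). Psma7 had 0.04 in CD4SP and 0.45 in CD8SP, a difference of -0.41 ± 0.11 (adjusted p = 0.034). Psmb3 had -0.10 in CD4SP and 0.27 in CD8SP, a difference of -0.36 ± 0.10 (adjusted p = 0.0364). Psmd13 had -0.22 in CD4SP and 0.12 in CD8SP, a difference of -0.34 ± 0.07 (adjusted p = 0.0111). Psmc4 had -0.60 in CD4SP and -0.26 in CD8SP, a difference of -0.34 ± 0.09 (adjusted p = 0.0267). Each was lower on all 3 CD4SP arrays than on any CD8SP array, as were 2109 of all 18193 genes. Of 23 alternatives the call was lost in 1 for Psmc3ip, 3 for Psmd13, 6 for Psmg4, 8 for Psmc4, 10 for Psma7 and 12 for Psmb3, and quantile normalization ended all 6. Over all genes it left 111 lower in CD4SP, against 893 before it.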

How the results depend on the processing

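The counts of immunoproteasome genes called in DP against DN and in each single-positive subset against DP stayed within 1.5 times under every alternative run. Other counts moved. Leaving out each array in turn, the members outside the immunoproteasome called higher numbered 1 to 3 in CD4SP against DP and 5 to 15 in CD8SP against DP, and 0 to 1 in CD4SP against CD8SP, 0 to 2 in CD4SP against DN and 1 to 2 in CD8SP against DN, and those called lower numbered 8 to 14 in CD8SP against DP and 2 to 18 in CD4SP against CD8SP. The immunoproteasome genes lower in CD4SP than in CD8SP numbered 0 to 4. Quantile normalization left 18 lower and 1 higher in DP against DN, 9 lower and 0 higher in CD4SP against DP, 5 lower and 0 higher in CD8SP against DP, 0 lower in CD4SP against CD8SP, 0 higher in CD4SP against DN (and 1 immunoproteasome gene), and 14 lower and 0 higher in CD8SP against DN. Over all genes, too, fewer were called in each comparison after it. Array weights gave 5 higher in CD4SP against DP, 16 higher in CD8SP against DP, and, in CD4SP against CD8SP, 16 lower, 1 higher and 4 immunoproteasome genes lower. Without DN replicate 1 and CD8SP replicate 1 together these were 3, 14, 19, 1 and 4, with 8 lower in CD8SP against DP and 1 higher in CD4SP against DN. The probe set with the highest mean gave 1 higher in DP against DN, 2 higher and 8 lower in CD4SP against DP, 4 lower in CD8SP against DP, and 1 higher and 1 immunoproteasome gene lower in CD4SP against CD8SP. Because the values are centred on DP, this setting picks probe sets by how far they lie above DP in the other groups, so its shifts follow from the choice and bear on no call. The probe set with the smallest spread gave 2 higher in CD4SP against DP, 8 lower in CD8SP against DP, 2 higher in CD8SP against DN and 1 immunoproteasome gene lower in CD4SP against CD8SP. That setting picks probe sets by the spread that enters the test, which favours calls, so a call made by it bears on no gene. Fitting only the groups compared gave 3 higher in CD4SP against DP, 7 lower in CD8SP against DP, 2 lower in CD4SP against CD8SP and 1 higher in CD4SP against DN. Array medians set to 0 gave 0 higher in CD4SP against DN. With the replicate block 2 were higher in CD4SP against DP and 2 immunoproteasome genes were lower in CD4SP than in CD8SP, and with arrays numbered 1 as a factor 3 and 2. Same-numbered arrays had residual correlations of 0.11 to 0.16 for replicate 1 (6 of 6 pairs over 0.1), -0.03 to 0.09 for replicate 2 (0 of 6) and 0.02 to 0.14 for replicate 3 (1 of 6), so the numbers were not taken to pair the arrays. The cause of the other moves was not tested; the fits on fewer arrays have fewer samples by construction.

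In 15 of 6762 refitted values a gene changed sign and was called in the main fit, the alternative or both. All 15 came with 1 probe set in place of the mean. Sign changes of genes called in neither fit were not counted. With the probe set of highest mean Psma1 had -0.53 in DP against DN and 0.0783 in CD8SP against DP, Psma6 -0.15 in DP against DN, Psma3 -0.47 in CD4SP and -0.36 in CD8SP against DN, and Psmd13 0.0936 in CD8SP against DN and 0.54 in CD4SP against DP. With the probe set of smallest spread Psma1 and Psma3 had the same values, Psmd4 had 0.44 in CD4SP and 0.35 in CD8SP against DN, and Psme4 -0.14 and -0.37. Signal over background is lost in these values, so dim probe sets could not be told from bright ones.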

Other observations

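The genes Psmb9, Tap1, Psmb8 and Tap2 follow each other in this order among the protein-coding genes of chromosome 17 in the RefSeq table, inside the MHC class II region, and they did not move alike. Psmb9 and Tap1 rose in both single-positive subsets against DP, Psmb8 rose in CD8SP, and Tap2 fell in both. Tap2 rests on 1 probe set, which had -0.61 in CD4SP and -0.89 in CD8SP relative to DP and was called lower in both. Tap1 has 4 probe sets, which differ: relative to DP they had 1.57, -0.29, 0.31 and 0.79 in CD4SP, of which 2 were called higher, and 1.67, -0.40, 0.22 and 0.60 in CD8SP, of which 2 were called higher.

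Probe sets of 1 gene were called in opposite directions in 2 of the 49 genes in DP against DN (Psma1 and Psmc2), in Psmd13 in CD4SP against DP, in Psma6 in CD4SP against CD8SP, in 5 genes in CD4SP against DN and in 4 in CD8SP against DN. For Psmc2 in DP against DN 2 probe sets fell, by 0.48 and 0.56, and the third rose by 0.61. For Psmd13 in CD4SP against DP 3 probe sets fell, by 0.45, 0.41 and 0.56, and the fourth rose by 0.54.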
